A study of Homo sapiens with 24 samples.

Results

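The genes of the complement system followed here were 9: the components C1R, C1S, C3, C7 and CFB and the regulators SERPING1, CD46, CD55 and CD59. They were chosen by name and matched by symbol to the 62703 gene identifiers of the count data. C7 was selected on its falls in WNK2- cells and in transfected cells under sorbitol, so every C7 value below is a description and was not tested. Of the 9 genes, 7 passed the low-count filter that left 16600 genes for testing, and the 6 of these other than C7 were tested. SERPING1 had 3 reads and CFB none.

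RNA-seq was performed on T/C-28a2 cells, an immortalised human chondrocyte line, to ask how WNK2 contributes to the chondrocyte response to chronic hyperosmotic stress. The 24 libraries formed 6 groups of 4. WT Ctr and WT Sor were untransfected wild-type cells in isotonic medium or in medium with 100 mM sorbitol for 7 days, and WNK2 trans Ctr and WNK2 trans Sor were wild-type cells that received a WNK2 plasmid 48 hours before the same media. WNK2- Ctr and WNK2- Sor were cells with exon 2 of WNK2 deleted by CRISPR/Cas9, kept in the same media without transfection. The WNK2- cells are 1 clone, so loss of WNK2 and other properties of that clone cannot be told apart, and the transfected cells were set against untransfected cells, so the plasmid and the transfection cannot be told apart.

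Complement is a cascade of plasma proteins that marks surfaces for clearance and lysis. In the classical pathway the proteases C1r and C1s cleave C4 and C2, and the resulting convertase cleaves C3, the central component on which all pathways meet; factor B, the product of CFB, supplies the protease of the alternative pathway convertase. C7 joins C5b and C6 and anchors the membrane attack complex, while C1 inhibitor (SERPING1) blocks C1r and C1s, CD46 and CD55 inactivate or dissociate convertases on the cell's own membrane, and CD59 stops assembly of the membrane attack complex. The liver makes most plasma complement, and joint cells including chondrocytes also produce components and membrane regulators.

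The promoters of 3 members are shown, since the results turn on a component that spanned the widest range of levels (C7), a protease that moved with its partner (C1R) and a regulator that moved the other way (CD55). Each is the 250 bases before a RefSeq start on GRCh38.p14, C7 at chr5:40909247-40909496 (plus strand), C1R at chr12:7092446-7092695 (minus strand, the first of its 2 starts) and CD55 at chr1:207321428-207321677 (plus strand), written 5′ to 3′ in lower case with motif matches in capitals.
C7: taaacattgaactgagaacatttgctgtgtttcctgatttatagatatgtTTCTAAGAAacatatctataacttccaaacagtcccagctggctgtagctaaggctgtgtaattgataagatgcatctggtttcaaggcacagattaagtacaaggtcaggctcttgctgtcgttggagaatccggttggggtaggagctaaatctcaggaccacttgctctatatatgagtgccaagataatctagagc
C1R: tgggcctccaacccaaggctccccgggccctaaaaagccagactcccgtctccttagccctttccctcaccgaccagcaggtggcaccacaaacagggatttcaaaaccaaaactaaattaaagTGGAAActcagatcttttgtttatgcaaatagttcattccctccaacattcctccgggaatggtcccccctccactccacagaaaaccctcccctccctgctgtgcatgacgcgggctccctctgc
CD55: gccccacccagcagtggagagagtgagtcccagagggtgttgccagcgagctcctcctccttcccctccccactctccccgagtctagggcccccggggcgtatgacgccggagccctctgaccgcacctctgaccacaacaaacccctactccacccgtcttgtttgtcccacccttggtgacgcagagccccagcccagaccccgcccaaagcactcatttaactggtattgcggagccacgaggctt
The motifs searched on both strands were TTCNNNGAA (bound by STAT dimers), GAAANNGAA (part of the interferon-stimulated response element), GGANNTTCC (part of the NF-kB site) and TGGAAA (the core of the tonicity element bound by NFAT5, the factor of the hyperosmotic response). C7 held TTCTAAGAA, 200 to 192 bases before its start, and TTCNNNGAA occurred in 6.57% of the 35116 promoters of the table. C1R held TGGAAA 126 to 121 bases before its first start, a word found in 18.0% of promoters; the window of its second start, not shown, held TGGAAA at 129 to 124 and at 40 to 35 bases and TTCCTGGAA, a match of TTCNNNGAA, at 86 to 78 bases. The windows of CD55 and of both CD46 starts held none of the 4 words. The single CFB window held TTCNNNGAA, GAAANNGAA and GGANNTTCC, of which the last overlapped the first and the latter pair are found in 6.88% and 3.84% of promoters. Of the CD59 starts, the first held TTCNNNGAA and GGANNTTCC, at 128 to 120 and 74 to 66 bases, the second the same pair at 184 to 176 and 130 to 122 bases, and the third TGGAAA at 68 to 63 bases. The table had entries for 6 of the 9 genes, and C3, C1S and SERPING1 were not among them.

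Total counts ran from 14153002 to 25664619 per library. WNK2, the targeted gene, went against the labels in isotonic medium: the libraries labelled WT Ctr had 1217 to 2568 WNK2 reads and those labelled WNK2 trans Ctr 163 to 290, while WT Sor had 266 to 314 and WNK2 trans Sor 2237 to 3739. WNK2- Ctr had 440 to 501 WNK2 reads and WNK2- Sor 322 to 503, counted over the whole gene and so without regard to exon 2. Differences of the members from one of these isotonic groups, and both interactions, are therefore given with the groups exchanged as well; for the other complement genes described further on, the comparator is as labelled. Of 14 chondrocyte markers 10 were testable. The summed level of the list was 104 to 161 reads per 1000000 of TMM-scaled library size (CPM) in the 4 groups of WT genotype. It was 28.5 to 34.0 CPM in the WNK2- groups. HAPLN1, at 12.8 to 151 CPM over the libraries, had most of these reads, and SOX9 was listed at 0. The part of the difference between these sums in the results below was not tested. Hepatocyte markers, for the main source of plasma complement, had no testable member of 7 and summed to at most 1.16 CPM, while macrophage and monocyte markers (3 of 9 testable, CD68 listed at 0) and endothelial markers (4 of 5 testable, none at 0) are given beside the members they moved with. In bulk RNA, fewer cells that express a gene and less RNA per cell cannot be told apart.

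The counting left genes that lie inside other genes nearly empty. Of 2104 protein-coding genes whose exons lie wholly within the span of another annotated gene, 85.0% had 0 reads in all 24 libraries, against 8.46% of the 9495 coding genes with no such overlap. CFB has 99.3% of its exon bases and CD59 94.5% within the span of another gene, in both cases a longer transcription unit on the same strand. A count of 0 for CFB is thus a listing and not evidence of absent RNA, and CD59 counts stand for the small remainder of its exons. For C1R the overlapped share was 39.3%, for C1S 3.54% and for C3 0.312%, while C7, CD46, CD55 and SERPING1 overlapped no other gene. Gene spans are those of GENCODE 29 on GRCh38, which need not be the annotation that was counted.

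C1R and C1S, the paired proteases of the classical pathway, were lower in both WNK2- groups and highest in the libraries labelled WNK2 trans Ctr. C1R (ENSG00000159403, GRCh38 chromosome 12, 7080199 to 7092607, minus strand) had 257, 266, 202 and 200.3 CPM in the libraries labelled WT Ctr. In WNK2- Ctr it had 51.8, 46.6, 46.3 and 48.6 CPM, and no library of these groups overlapped. The log2 fold change of WNK2- Ctr against the libraries labelled WT Ctr was −2.26 (SE 0.13, edgeR adjusted p = 1.15e-12), and against those labelled WNK2 trans Ctr it was −2.82 (edgeR adjusted p = 1.10e-14). Under sorbitol the level was 258, 259, 253 and 267 CPM in WT Sor. It was 23.1, 29.6, 30.4 and 26.5 CPM in WNK2- Sor, again with every WNK2- library below every WT library. That log2 fold change was −3.24 (SE 0.14, edgeR adjusted p = 1.32e-15), the largest in size of the 6 tested members in this comparison. C1R also fell with sorbitol within WNK2- cells, with a log2 fold change of −0.82 (SE 0.13, edgeR adjusted p = 7.88e-05), whereas in WT Sor against the libraries labelled WT Ctr the groups overlapped and the value was 0.17 (SE 0.13, edgeR adjusted p = 0.374). Against the libraries labelled WNK2 trans Ctr, C1R in WT Sor was −0.40 (edgeR adjusted p = 0.0347).

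C1S (ENSG00000182326, GRCh38 chromosome 12, 6988259 to 7071032, plus strand) lies beside C1R on the opposite strand. Its level was 105, 120.3, 93.5 and 81.6 CPM in the libraries labelled WT Ctr and 139, 141, 141 and 147 CPM in WT Sor. Every WT Sor library lay above every library labelled WT Ctr, a log2 fold change of 0.50 (SE 0.11, edgeR adjusted p = 0.00144), but against the libraries labelled WNK2 trans Ctr the sign turned, to −0.33 (edgeR adjusted p = 0.0397). In WNK2- Ctr C1S had 25.0, 25.9, 25.4 and 27.3 CPM. WNK2- Sor had 28.6, 30.4, 24.9 and 27.8 CPM, so the WNK2- groups overlapped and their log2 difference was 0.11 (SE 0.11, edgeR adjusted p = 0.587), with a 95% interval of −0.12 to 0.34. Against the WT groups C1S was lower, with log2 fold changes of −1.95 (SE 0.11, edgeR adjusted p = 8.41e-13) in isotonic medium and −2.34 (SE 0.11, edgeR adjusted p = 1.16e-14) under sorbitol, and of −2.78 (edgeR adjusted p = 8.14e-16) for WNK2- Ctr against the libraries labelled WNK2 trans Ctr.

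In transfected cells both proteases fell with sorbitol. C1R had 309, 316, 420.1 and 322 CPM in the libraries labelled WNK2 trans Ctr, where replicate 3 stood above the rest. In WNK2 trans Sor it had 157, 98.2, 112 and 109 CPM, below every library of the isotonic group. C1S had 159, 171, 196 and 186 CPM in the libraries labelled WNK2 trans Ctr and 72.4, 65.9, 62.8 and 50.3 CPM in WNK2 trans Sor, without overlap. The log2 fold changes were −1.52 (SE 0.13, edgeR adjusted p = 6.63e-10) for C1R and −1.50 (SE 0.11, edgeR adjusted p = 4.18e-11) for C1S. Set against the libraries labelled WT Ctr instead, WNK2 trans Sor was still lower, with −0.96 (edgeR adjusted p = 2.25e-06) for C1R and −0.67 (edgeR adjusted p = 3.08e-05) for C1S. WNK2 trans Sor was also below WT Sor, with −1.13 (SE 0.13, edgeR adjusted p = 2.83e-07) for C1R and −1.17 (SE 0.11, edgeR adjusted p = 1.18e-08) for C1S. Between the isotonic groups of WT genotype, the libraries labelled WNK2 trans Ctr were above those labelled WT Ctr, by 0.56 (SE 0.13, edgeR adjusted p = 0.00358) and 0.83 (SE 0.11, edgeR adjusted p = 6.04e-06) respectively. The summed level of fibroblast markers (6 of 8 testable, THY1 listed at 0) moved with these genes in the WT genotype, from 5546 to 6728 CPM in the libraries labelled WNK2 trans Ctr, 3726 to 3976 CPM in WT Sor and 2797 to 4015 CPM in those labelled WT Ctr to 1115 to 1878 CPM in WNK2 trans Sor, and was 2678 to 3026 CPM in WNK2- Ctr and 968 to 1168 CPM in WNK2- Sor. That of macrophage and monocyte markers was 15.8 to 24.6 CPM in the libraries labelled WNK2 trans Ctr, 11.8 to 17.1 CPM in WT Sor, 9.19 to 13.0 CPM in those labelled WT Ctr, 7.27 to 11.5 CPM in WNK2 trans Sor, 6.41 to 7.75 CPM in WNK2- Ctr and 8.31 to 9.42 CPM in WNK2- Sor. Both sums were thus highest where C1R, C1S and C7 were highest, but each drew most of its reads from 1 gene. COL1A1 had 1091320 reads in all and up to 5389 CPM, and CD14 had 3053 reads and up to 21.9 CPM. The fibroblast marker LUM went otherwise than its sum, from a mean log2 CPM of 2.83 in the libraries labelled WT Ctr to −2.10 in WNK2- Ctr. The part of these sums in the results was not tested.

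**Figure D1:**
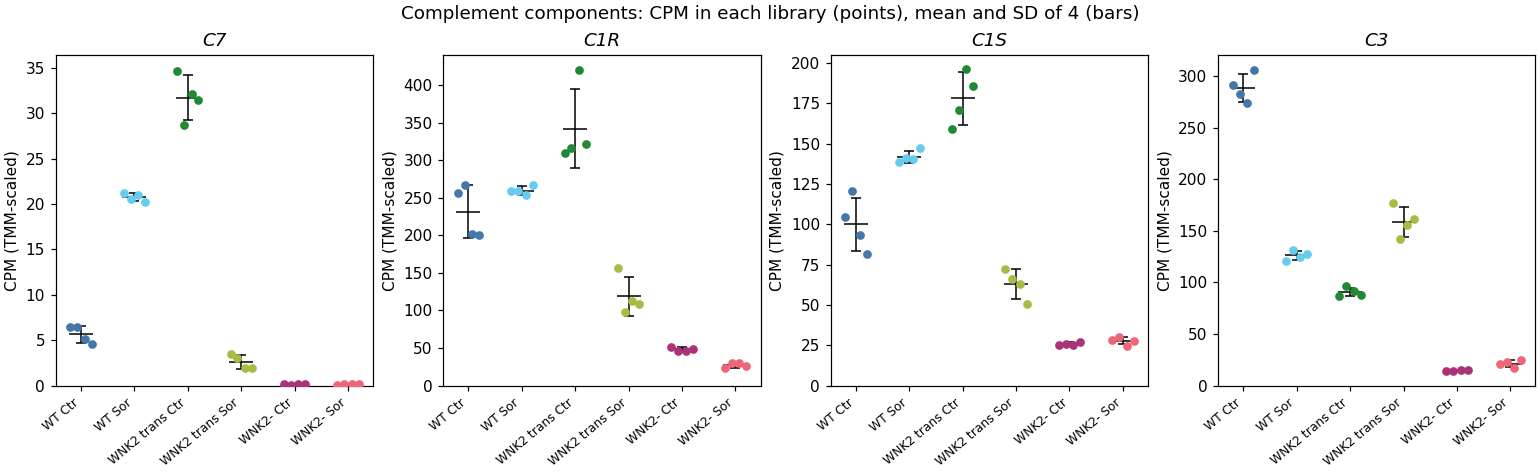
TMM-scaled CPM (linear axes from 0) of C7, C1R, C1S and C3 in the 24 libraries by labelled group, 1 point per library, with bars for the mean and SD of 4. C7, C1R and C1S peaked in the libraries labelled WNK2 trans Ctr and C3 in those labelled WT Ctr, and the WNK2- groups sat lowest in all 4 panels.

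The ratio of C1R to C1S reads within a library separated 1 group from the rest. Its mean ± SD over 4 libraries was 2.32 ± 0.156 in those labelled WT Ctr, 1.83 ± 0.0285 in WT Sor, 1.92 ± 0.172 in those labelled WNK2 trans Ctr, 1.90 ± 0.325 in WNK2 trans Sor and 1.87 ± 0.135 in WNK2- Ctr. In WNK2- Sor it was 0.989 ± 0.172, with a highest library of 1.22 against a lowest of 1.49 in any other group. C1R was thus counted about as often as C1S only in WNK2- Sor, where C1R had fallen and the C1S interval included 0. C1RL, the C1r-like protease whose exons share 11.4% of the C1R exon bases, had 182 to 877 reads per library, and reads in the shared bases may be missing from both.

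**Figure D2:**
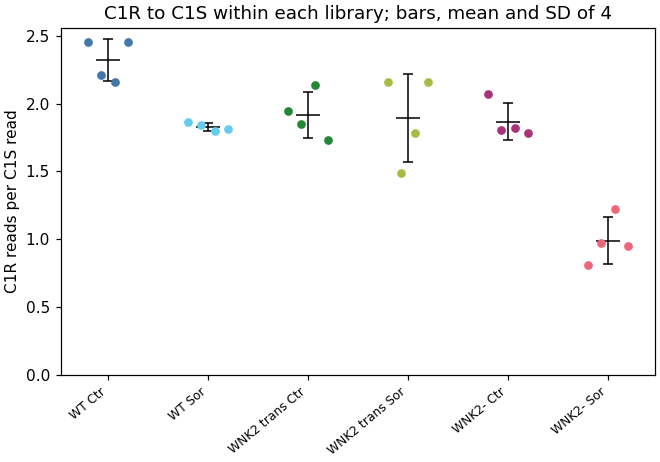
Reads of C1R per read of C1S (linear axis from 0) in each library by labelled group, with bars for the mean and SD of 4. The 4 WNK2- Sor libraries lie between 0.809 and 1.22, below all 20 others.

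C3, which all complement pathways cleave, had the largest difference of the tested members between WNK2- Ctr and the libraries labelled WT Ctr. C3 (ENSG00000125730, GRCh38 chromosome 19, 6677704 to 6730562, minus strand) had 292, 283, 274 and 306 CPM in the libraries labelled WT Ctr. It had 14.3, 14.7, 15.5 and 15.01 CPM in WNK2- Ctr, a log2 fold change of −4.28 (SE 0.10, edgeR adjusted p = 3.32e-20). Against the libraries labelled WNK2 trans Ctr, at 87.2, 96.5, 91.5 and 88.0 CPM, the fall was smaller, at −2.61 (edgeR adjusted p = 7.31e-17). C3 in both comparators thus lay far above the WNK2- cells. Under sorbitol WT Sor had 121, 132, 125 and 127 CPM and WNK2- Sor 21.5, 22.8, 17.0 and 24.5 CPM, a log2 fold change of −2.56 (SE 0.09, edgeR adjusted p = 6.12e-17).

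The direction of C3 with sorbitol depended on the cells and on the comparator. WT Sor was below the libraries labelled WT Ctr, with a log2 fold change of −1.19 (SE 0.09, edgeR adjusted p = 8.44e-10), yet above those labelled WNK2 trans Ctr, with 0.47 (edgeR adjusted p = 4.86e-04). Within WNK2- cells C3 rose, by 0.53 (SE 0.09, edgeR adjusted p = 2.54e-04), with no overlap between the groups. WNK2 trans Sor, at 177, 142, 155 and 162 CPM, was above the libraries labelled WNK2 trans Ctr, by 0.81 (SE 0.09, edgeR adjusted p = 5.53e-08), and above WT Sor, by 0.33 (SE 0.09, edgeR adjusted p = 0.00561). Against the libraries labelled WT Ctr it was lower, at −0.86 (edgeR adjusted p = 4.11e-08). Only the comparisons among WNK2- Ctr, WNK2- Sor, WT Sor and WNK2 trans Sor do not turn on the isotonic groups whose WNK2 counts went against their labels. C3 was lower in the libraries labelled WNK2 trans Ctr than in those labelled WT Ctr, at −1.67 (SE 0.09, edgeR adjusted p = 2.16e-12), opposite in sign to C1R and C1S.

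CFB (ENSG00000243649, GRCh38 chromosome 6, 31945650 to 31952084, plus strand), the alternative pathway protease, was listed at 0 in all 24 libraries. The upper limit that 0 reads allow (3 reads) is 0.117 to 0.212 CPM per library, for counting error only and for the part of the gene that could be counted. The readthrough gene ENSG00000244255, which covers nearly all of CFB, was also listed at 0 in all 24, while C2, the classical pathway counterpart that lies next to CFB, had 27 to 139 reads.

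C7, a terminal component, spanned the widest range of levels of the members. C7 (ENSG00000112936, GRCh38 chromosome 5, 40909252 to 40982939, plus strand) had 98, 100, 87 and 64 reads in the 4 libraries labelled WT Ctr, 358, 315, 379 and 364 in WT Sor, 512, 642, 524 and 502 in those labelled WNK2 trans Ctr and 54, 55, 33 and 39 in WNK2 trans Sor. In WNK2- Ctr it had 3, 1, 3 and 3 reads and in WNK2- Sor 1, 4, 3 and 3. C7 was therefore near the limit of counting in the deleted clone in both media and well counted everywhere else. Mean levels were 31.7 ± 2.48 CPM (SD, n = 4) in the libraries labelled WNK2 trans Ctr, 20.7 ± 0.443 in WT Sor, 5.66 ± 0.927 in those labelled WT Ctr, 2.60 ± 0.808 in WNK2 trans Sor, 0.132 ± 0.0647 in WNK2- Sor and 0.120 ± 0.0478 in WNK2- Ctr. No neighbours in this order overlapped except the 2 WNK2- groups.

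Set side by side, the pooled reads put C7 in the libraries labelled WT Ctr at 47.0 times WNK2- Ctr (95% counting interval 25.2 to 98.9) and in WT Sor at 165 times WNK2- Sor (91.9 to 331). These intervals cover counting error only. WT Sor stood at 3.65 times the libraries labelled WT Ctr (3.25 to 4.12), and the direction turned against those labelled WNK2 trans Ctr, where the fitted log2 difference was −0.61. WNK2 trans Sor was 0.0813 times the libraries labelled WNK2 trans Ctr (0.0695 to 0.0947), with a log2 value of −3.62, and −1.13 against those labelled WT Ctr. It was 0.123 times WT Sor (0.105 to 0.144), a comparison that involves neither isotonic group. C7 had thus opposite directions with sorbitol in untransfected and transfected cells as labelled, and both became falls when the isotonic groups were exchanged. For WNK2- Ctr the fitted log2 value was −7.96 against the libraries labelled WNK2 trans Ctr and −5.48 against those labelled WT Ctr, low in both.

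**Figure D3:**
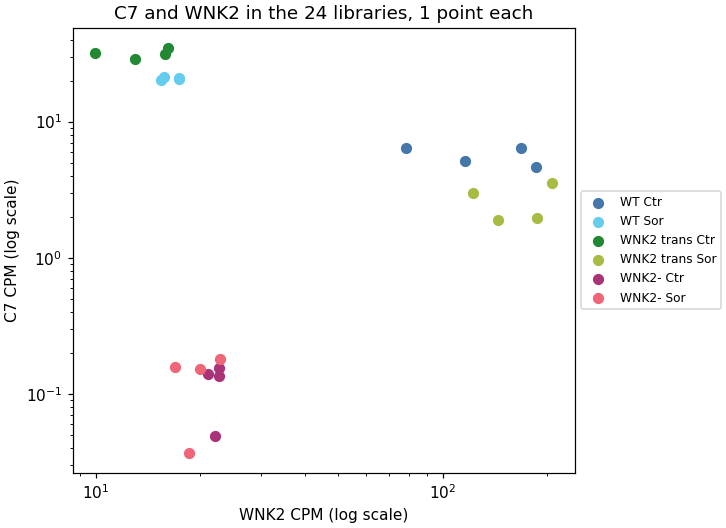
C7 CPM against WNK2 CPM (both axes logarithmic), 1 point per library coloured by labelled group. The libraries labelled WNK2 trans Ctr and WT Sor lie together at low WNK2 and high C7, those labelled WT Ctr and WNK2 trans Sor at high WNK2 and lower C7, and both WNK2- groups at low WNK2 and the lowest C7.

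The neighbours of C7 on chromosome 5 did not share its values: the 8 tested genes within 1 Mb had a median log2 fold change of −0.04 for WNK2- Ctr against the libraries labelled WT Ctr, where C7 had −5.48, and 0.03 for WNK2- Sor against WT Sor, where C7 had −7.28. The genes whose group means were most like those of C7 over the 6 groups, by the root mean square difference of centred log2 CPM, were SPRY1 (0.508), an inhibitor of receptor tyrosine kinase signalling, SULF1 (0.582), a heparan sulfate 6-O-endosulfatase, LUM (0.753), a collagen-binding proteoglycan, CDH6 (0.821), a cadherin, and HAS2 (0.922), a hyaluronan synthase. All of these had lower group means in both WNK2- groups than in the other 4, and LUM is also in the fibroblast marker list. SPRY1, the closest, had mean log2 CPM of 6.87 in the libraries labelled WNK2 trans Ctr, 6.17 in WT Sor, 5.19 in those labelled WT Ctr, 4.26 in WNK2 trans Sor, 0.66 in WNK2- Ctr and −0.42 in WNK2- Sor.

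SERPING1 (ENSG00000149131, GRCh38 chromosome 11, 57597387 to 57614853, plus strand), the inhibitor of C1r and C1s, had 2 reads in WT Sor replicate 4, 1 read in WNK2- Sor replicate 2 and 0 in the other 22 libraries. It overlaps no other gene in GENCODE 29, so the listing differs in that respect from CFB and CD59. The inhibitor was thus at the counting limit in cells that had 1129 to 3826 reads per library of its target protease C1S in the isotonic groups of WT genotype.

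The membrane regulators did not all move in one direction, and CD46 and CD55 spanned narrower ranges than C3, C1R and C1S. CD46 (ENSG00000117335, GRCh38 chromosome 1, 207752057 to 207795513, plus strand), a cofactor for cleavage of C3b and C4b, had 229, 276, 329.8 and 274 CPM in the libraries labelled WT Ctr and 279, 269, 298 and 282 CPM in WT Sor. The deleted cells had 140.1, 174, 177 and 178 CPM in WNK2- Ctr and 193, 152, 195 and 174 CPM in WNK2- Sor. Every WNK2- library lay below every library of WT genotype. The log2 fold changes were −0.73 (SE 0.12, edgeR adjusted p = 2.25e-05) in isotonic medium and −0.66 (SE 0.12, edgeR adjusted p = 5.83e-05) under sorbitol, and −0.65 (edgeR adjusted p = 6.95e-05) for WNK2- Ctr against the libraries labelled WNK2 trans Ctr. WT Sor against the libraries labelled WNK2 trans Ctr gave 0.10 (edgeR adjusted p = 0.621), and WNK2 trans Sor against those labelled WT Ctr 0.01 (edgeR adjusted p = 0.943). In the 5 comparisons that do not cross genotypes CD46 was not called, with log2 values from −0.08 to 0.09. Those labelled WNK2 trans Ctr had 293, 279, 210.1 and 267 CPM and WNK2 trans Sor 230.0, 303, 306 and 280.3 CPM, and the 95% interval of their log2 difference was −0.15 to 0.34.

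CD55 (ENSG00000196352, GRCh38 chromosome 1, 207321376 to 207386804, plus strand), decay-accelerating factor, was higher in WNK2- cells, where CD46, its neighbour on the chromosome, was lower. It had 23.6, 32.4, 26.9 and 24.7 CPM in the libraries labelled WT Ctr and 43.8, 46.0, 48.7 and 49.1 CPM in WNK2- Ctr, without overlap. The log2 fold change was 0.80 (SE 0.10, edgeR adjusted p = 7.15e-07), and 1.49 (edgeR adjusted p = 1.43e-11) against the libraries labelled WNK2 trans Ctr. WT Sor had 29.5, 27.0, 30.7 and 29.5 CPM and WNK2- Sor 43.2, 42.5, 48.3 and 47.5 CPM, a log2 fold change of 0.64 (SE 0.10, edgeR adjusted p = 1.28e-05). Sorbitol gave −0.05 (SE 0.10, edgeR adjusted p = 0.817) within WNK2- cells, a 95% interval of −0.25 to 0.16. In transfected cells CD55 went from 17.6, 18.5, 14.8 and 15.8 CPM in the libraries labelled WNK2 trans Ctr to 45.2, 56.6, 53.5 and 55.1 CPM in WNK2 trans Sor. This was the largest CD55 difference of the 7 comparisons as labelled, at 1.66 (SE 0.11, edgeR adjusted p = 2.40e-12), and 0.97 (edgeR adjusted p = 6.39e-08) against the libraries labelled WT Ctr. CD55 in WNK2 trans Sor also exceeded WT Sor, by 0.85 (SE 0.10, edgeR adjusted p = 5.47e-07). Between WT Sor and the libraries labelled WT Ctr the groups overlapped, with 0.12 (SE 0.10, edgeR adjusted p = 0.438), whereas WT Sor was higher than the libraries labelled WNK2 trans Ctr, with 0.81 (edgeR adjusted p = 4.80e-06). The libraries labelled WNK2 trans Ctr were below those labelled WT Ctr, at −0.69 (SE 0.11, edgeR adjusted p = 4.59e-05). The summed level of endothelial markers was 25.3 to 41.7 CPM in the libraries labelled WNK2 trans Ctr, 36.2 to 42.5 CPM in those labelled WT Ctr, 60.0 to 67.2 CPM in WT Sor and 99.3 to 106 CPM in WNK2 trans Sor, and thus rose where CD55 rose in transfected cells, but it was 24.4 to 29.1 CPM in WNK2- Ctr and 35.8 to 45.7 CPM in WNK2- Sor, where CD55 was high; its part in the result was not tested.

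CD59 (ENSG00000085063, GRCh38 chromosome 11, 33703010 to 33736491, minus strand), the inhibitor of the terminal complex, was counted at 3 to 75 reads per library. Its counts are few and stand for a small part of the gene: it reached the level of the low-count filter (0.571 reads per 1000000) in 1 of 4 libraries labelled WT Ctr, in 1 of 4 labelled WNK2 trans Ctr and in all 4 of each other group. In each of the 7 pairwise comparisons it would have passed the filter without the compared groups, through 10 to 16 libraries of the others. It had 10, 3, 7 and 5 reads in the libraries labelled WT Ctr, 14, 14, 25 and 13 in WT Sor, 12, 5, 9 and 4 in those labelled WNK2 trans Ctr and 21, 39, 47 and 44 in WNK2 trans Sor. WNK2- Ctr had 32, 48, 48 and 51 reads and WNK2- Sor 75, 47, 33 and 42. The 2 WNK2- groups and WNK2 trans Sor overlapped one another and had the highest means. The log2 fold change of WNK2- Ctr against the libraries labelled WT Ctr was 2.39 (SE 0.37, edgeR adjusted p = 1.02e-05), and 2.26 (edgeR adjusted p = 1.02e-05) against those labelled WNK2 trans Ctr. That of WNK2- Sor against WT Sor was 1.19 (SE 0.32, edgeR adjusted p = 0.00344). Transfected cells rose with sorbitol by 2.24 (SE 0.36, edgeR adjusted p = 1.53e-05), and by 2.36 (edgeR adjusted p = 1.85e-05) against the libraries labelled WT Ctr. WNK2 trans Sor exceeded WT Sor by 1.13 (SE 0.32, edgeR adjusted p = 0.00983), though these groups overlapped. The rise in WT Sor over the libraries labelled WT Ctr, 1.23 (SE 0.39, edgeR adjusted p = 0.0239), missed the threshold against those labelled WNK2 trans Ctr, at 1.11 (edgeR adjusted p = 0.0509), without WT Ctr replicate 2 (adjusted p = 0.0902) and without WT Sor replicate 3 (adjusted p = 0.0980), all in edgeR.

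**Figure D4:**
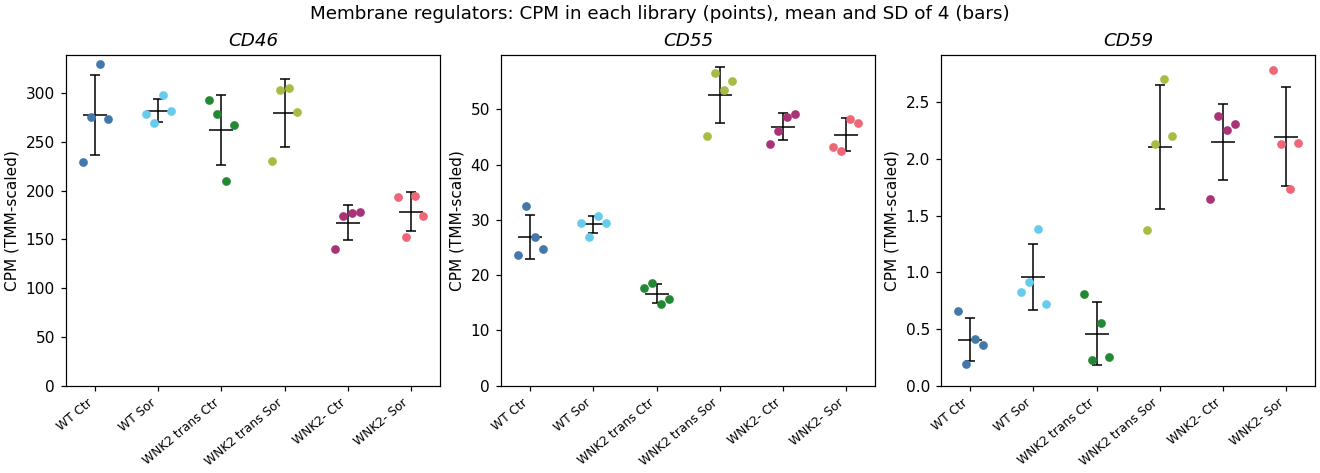
TMM-scaled CPM (linear axes from 0) of CD46, CD55 and CD59 in the 24 libraries by labelled group, 1 point per library, with bars for the mean and SD of 4. CD46 was lowest in the WNK2- groups, while CD55 and CD59 were high in the WNK2- groups and in WNK2 trans Sor.

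In the comparisons of genotypes, the 3 tested components were lower in WNK2- cells and the 3 regulators divided. For WNK2- Ctr against the libraries labelled WT Ctr, 2 were called higher (CD55 and CD59) and 4 lower (C3, C1R, C1S and CD46), where 20.7% of all 16600 genes were higher and 21.5% lower. WNK2- Sor against WT Sor gave the same 2 and 4, beside 23.7% and 22.7% of all genes. Without CD59, whose low groups hardly reached the filter, both counts were 1 higher and 4 lower. The median log2 fold change of these 5 members was −1.95 and −2.34 in these comparisons, against 0.00202 and 0.0198 over all tested genes. The genes were picked with earlier results known, so these counts describe the list and give no independent support. With the libraries labelled WNK2 trans Ctr in place of those labelled WT Ctr, the first count stayed at 6 called. Over all 16600 genes the calls rose from 6996 to 7924 with this comparator.

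Fewer members were called in the comparisons of media and of transfection. For WT Sor against the libraries labelled WT Ctr, 2 were higher (C1S and CD59) and 1 lower (C3), where 11.4% and 12.7% of all genes were called; the CD59 call was lost under the alternatives given above, and without CD59 the count was 1 and 1. WNK2- Sor against WNK2- Ctr had 1 higher (C3) and 1 lower (C1R), where the shares of all genes were 8.25% and 6.64%. For the libraries labelled WNK2 trans Ctr against those labelled WT Ctr, 2 were higher (C1R and C1S) and 2 lower (C3 and CD55), with 5.57% and 6.98% of all genes. WNK2 trans Sor against WT Sor had 3 higher (C3, CD55 and CD59, or 2 without CD59) and 2 lower (C1R and C1S), with 16.1% and 15.5% of all genes. Sorbitol within the transfection labels called these 5 in the same directions, where 24.3% of all genes were higher and 23.7% lower; C3 was lower, at −0.86 (edgeR adjusted p = 4.11e-08), against the libraries labelled WT Ctr instead. C1R and C1S were lower and CD55 higher in both comparisons of WNK2 trans Sor.

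**Figure D5:**
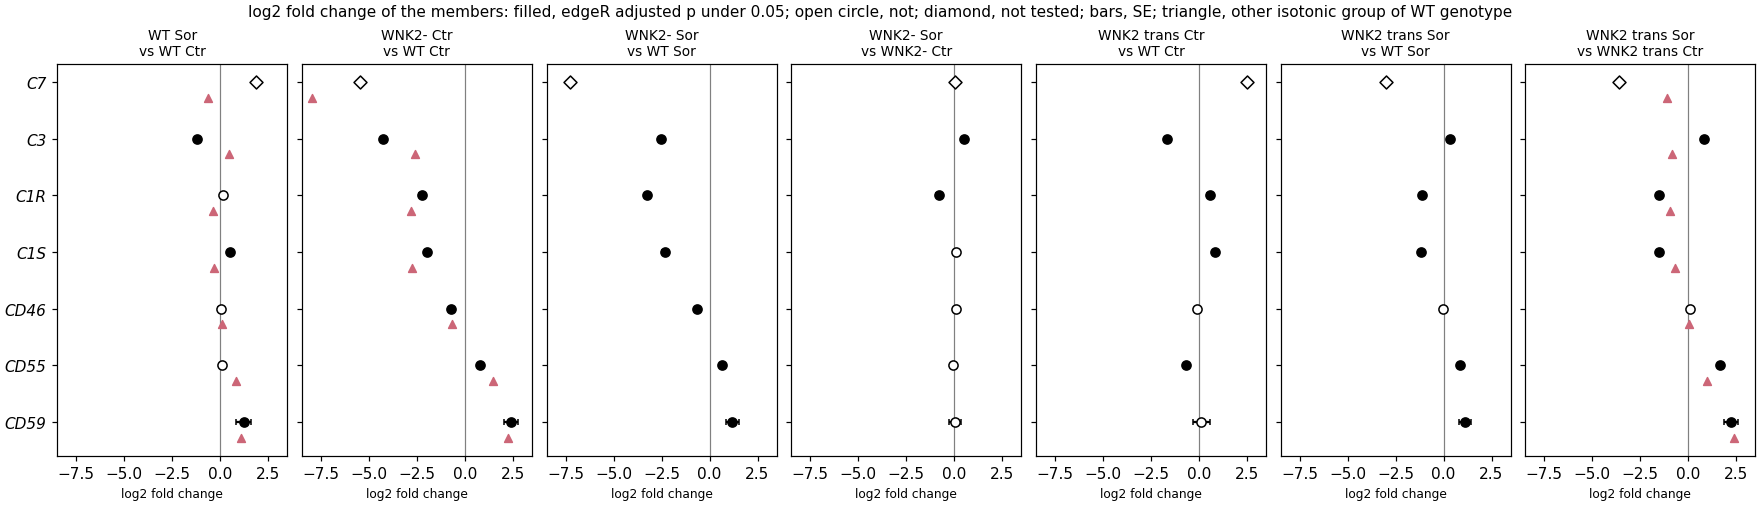
Log2 fold changes of 7 members in the 7 pairwise comparisons, with SE as bars (smaller than most symbols). Filled circles passed an edgeR adjusted p under 0.05, open circles did not, the open diamond is C7, which was not tested, and triangles give the value with the other isotonic group of WT genotype as comparator; for C3 in both sorbitol comparisons of WT genotype circle and triangle lie on opposite sides of 0.

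Interaction terms tested whether the difference with sorbitol itself differed between cells. For genotype, C3 had a difference of 1.72 (SE 0.13, edgeR adjusted p = 2.61e-09) and C1R of −0.98 (SE 0.18, edgeR adjusted p = 0.00112), which is 1 of 6 higher and 1 lower where 3.99% and 4.66% of all genes were called. With the libraries labelled WNK2 trans Ctr in place of those labelled WT Ctr these were 0.06 (edgeR adjusted p = 0.926) for C3 and −0.42 (edgeR adjusted p = 0.281) for C1R, so neither call held, and CD55 was called instead, at −0.86 (edgeR adjusted p = 6.21e-04). The exchanged values of the others were 0.44 (edgeR adjusted p = 0.150) for C1S, −0.01 (edgeR adjusted p = 0.993) for CD46 and −1.07 (edgeR adjusted p = 0.305) for CD59. Calls over all 16600 genes went from 1436 to 562 with this comparator. For transfection, 2 of 6 were higher, C3 at 2.00 (SE 0.13, edgeR adjusted p = 6.87e-12) and CD55 at 1.54 (SE 0.15, edgeR adjusted p = 1.06e-08), and 2 lower, C1R at −1.69 (SE 0.18, edgeR adjusted p = 7.67e-08) and C1S at −2.01 (SE 0.15, edgeR adjusted p = 2.92e-10), where 18.1% and 17.4% of all genes were called. This term uses both isotonic groups whose WNK2 counts went against their labels. With these exchanged, an alternative chosen after seeing the data, C3 turned to −1.33 (edgeR adjusted p = 2.55e-07), and the others were no longer called, with 0.16 (edgeR adjusted p = 0.611) for CD55, −0.56 (edgeR adjusted p = 0.0665) for C1R and −0.34 (edgeR adjusted p = 0.217) for C1S. None of these 4 kept both its call and its sign. Over all 16600 genes the calls went from 5897 to 906 with the exchange. CD46 had 0.07 (SE 0.17, edgeR adjusted p = 0.783) as labelled and −0.09 (edgeR adjusted p = 0.826) exchanged, and CD59 1.00 (SE 0.55, edgeR adjusted p = 0.161) and 1.25 (edgeR adjusted p = 0.206). The C7 values, as a description, were −1.81 for genotype and −5.49 for transfection, and 0.67 and −0.52 with the groups exchanged.

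Per kilobase of exon outside other genes, the members differed widely in level. In RPKM, which is CPM divided by exon length in kilobases, group means of C1R ran from 7.67 in WNK2- Sor to 95.7 in the libraries labelled WNK2 trans Ctr, of C3 from 1.79 in WNK2- Ctr to 34.8 in those labelled WT Ctr and of C1S from 4.16 in WNK2- Ctr to 28.6 in those labelled WNK2 trans Ctr. CD46 ran from 19.2 in WNK2- Ctr to 32.4 in WT Sor and CD55 from 2.82 in the libraries labelled WNK2 trans Ctr to 8.91 in WNK2 trans Sor. C7 ran from 0.0230 in WNK2- Ctr to 6.07 in those labelled WNK2 trans Ctr. The span from lowest to highest group mean was 263-fold for C7, 19.4-fold for C3, 12.5-fold for C1R, 6.87-fold for C1S, 5.42-fold for CD59, 3.16-fold for CD55 and 1.69-fold for CD46. CFB and SERPING1 had too few reads for a span. Among the members with a span the components lay above the regulators, but C7 was selected on its falls and CD59 had few counts. Of the 6 members given in RPKM, CD46 had the highest RPKM in both WNK2- groups, and C1R in the other 4.

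By the same measure of likeness used for C7, the closest pair of members was C1R and C1S (0.388), followed by CD55 and CD59 (0.489). Outside the members, C1R was most like HTRA1 (0.147), a secreted serine protease, AMIGO1 (0.162) and RASGRP2 (0.194). C1S was most like FAIM2 (0.0790), SERPINE2 (0.140), an inhibitor of serine proteases, and CSPG5 (0.141). C3 was most like CH25H (0.352), cholesterol 25-hydroxylase, FDCSP (0.452) and CYTL1 (0.474), a cytokine-like protein of cartilage. CD46 was most like TAPBP (0.0355), the chaperone tapasin, AMN1 (0.0458) and WDR88 (0.0496), CD55 like KIAA1217 (0.0816), SLC26A5 (0.0892) and CCDC7 (0.0947), and CD59 like ENSG00000258976 (0.0851), TRAM2 (0.0983) and DLEU1 (0.111). Genes with small spans lie near many others on this measure, which is a description over 6 group means.

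The values of chromosomal neighbours were also taken for the other members. In WNK2- Ctr against the libraries labelled WT Ctr, the median log2 fold change of the tested genes within 1 Mb was 0.14 over 37 genes for C3, 0.00437 over 55 for C1R and −0.00213 over 54 for C1S. CD46 fell where its 9 neighbours had a median of 0.80, the value of CD55 itself, which is one of them. CD55 had 15 neighbours with a median of 0.46, and CD59 16 with 0.13. In WNK2 trans Sor against the libraries labelled WNK2 trans Ctr, where CD55 had 1.66, its 15 neighbours had a median of 0.42. Of these, 8 were called higher and 1 lower, where 24.3% and 23.7% of all genes were called.

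Of 51 other complement genes, 20 were testable, 22 had too few reads and 9 were at 0 in every library; the last group includes C1QA and C1QB, subunits of C1q, and the regulator CFI. For WNK2- Ctr against the libraries labelled WT Ctr, 7 of 20 were higher, CSMD1 among them, and 4 lower. Of all genes 20.7% and 21.5% were called, so the count of lower genes was near the background. Besides CSMD1 the higher genes were ITGAM (log2 fold change 1.81), MASP2 (1.73), CLU (1.51), ITGB2 (0.99), C2 (0.88) and COLEC10 (0.42). ITGAM and MASP2 had few reads. For WNK2- Sor against WT Sor 6 were higher (5 without CSMD1) and 8 lower, where 23.7% and 22.7% of all genes were called, and there the count of higher genes was near it. COLEC12, a membrane collectin, had 14.1 to 17.6 CPM in the libraries labelled WT Ctr, and the WT Sor libraries had 15.5 to 16.8 CPM. WNK2- Ctr had 1.41 to 2.07 CPM and WNK2- Sor 0.669 to 1.53 CPM. Its log2 fold changes were −3.18 (SE 0.16, edgeR adjusted p = 5.68e-14) and −3.97 (SE 0.17, edgeR adjusted p = 1.03e-15), and it fell further with sorbitol in WNK2- cells, with −0.75 (SE 0.19, edgeR adjusted p = 0.00876). COLEC12 was thus low in the deleted cells along with C1R, C1S and C3. CR1L had 0.434 to 1.10 CPM in the libraries labelled WT Ctr and 0.0454 to 0.0993 in WNK2- Ctr, a log2 fold change of −3.05 (SE 0.73, edgeR adjusted p = 0.00145) on few reads. CSMD1, a membrane regulator, was at 0 in all libraries labelled WT Ctr and at 0.235 to 0.795 CPM in WNK2- Ctr; it reached the level of the filter in few libraries, nearly all of them WNK2-, so its calls are not given as tests. In WNK2 trans Sor it had 17 reads in 1 library and 0 in the other 3.

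With sorbitol in WT cells as labelled, 9 of the 20 rose and none fell, where 11.4% and 12.7% of all genes were called. ITGAM, a chain of complement receptor 3, rose by 1.87 (SE 0.44, edgeR adjusted p = 0.00333), C3AR1, the receptor for C3a, by 1.82 (SE 0.25, edgeR adjusted p = 1.20e-05) and MASP2, the lectin pathway protease, by 1.58 (SE 0.58, edgeR adjusted p = 0.0492) on the log2 scale. Within WNK2- cells 4 rose and 1 fell, where 8.25% and 6.64% of all genes were called: C3AR1 rose by 1.23 (SE 0.25, edgeR adjusted p = 9.96e-04) and SUSD4, a membrane inhibitor of the classical convertase, by 2.05 (SE 0.59, edgeR adjusted p = 0.0170). SUSD4 was also higher in WNK2- Sor and in WNK2 trans Sor than in WT Sor, by 3.15 (SE 0.67, edgeR adjusted p = 3.87e-04) and 2.79 (SE 0.68, edgeR adjusted p = 0.00291); it reached the level of the filter in all libraries of WNK2- Sor and WNK2 trans Sor and in none of WT Sor, and would have passed through either of the first pair alone. C3AR1 was thus up with sorbitol in both genotypes, while its ligand's precursor C3 went down in WT cells as labelled and up in WNK2- cells.

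The C4 genes, whose product C1s cleaves, moved in the same directions as C1R and C1S in the transfection labels. C4A had 0.867 to 1.87 CPM in the libraries labelled WT Ctr, while WT Sor had 0.890 to 1.60 CPM, those labelled WNK2 trans Ctr 2.88 to 8.14 CPM and WNK2 trans Sor 0 to 0.748 CPM. For C4B the libraries labelled WNK2 trans Ctr had 3.30 to 3.86 CPM and WNK2 trans Sor 0 to 0.131 CPM. C4A and C4B are near-identical copies between which reads cannot be split with certainty, so each value alone is uncertain. For C4A the fall with sorbitol was −4.13 (SE 0.48, edgeR adjusted p = 1.44e-07), the libraries labelled WNK2 trans Ctr exceeded those labelled WT Ctr by 2.12 (SE 0.41, edgeR adjusted p = 8.00e-04), and WNK2 trans Sor was lower than WT Sor, at −1.70 (SE 0.53, edgeR adjusted p = 0.0157). C4B passed the low-count filter through the libraries labelled WNK2 trans Ctr, so its differences from them are given as levels, with no test. ITGB2, the beta chain of complement receptors 3 and 4, was lower in the libraries labelled WNK2 trans Ctr than in those labelled WT Ctr, at −1.62 (SE 0.48, edgeR adjusted p = 0.0240). Over the 20 genes, 5 were higher and 1 lower in that comparison (4 and 1 without C4B), where 5.57% and 6.98% of all genes were called. For WNK2 trans Sor against WT Sor 3 and 4 were called, about the background of 16.1% and 15.5%. For sorbitol within the transfection labels 11 and 4 were called (11 and 3 without C4B), where 24.3% and 23.7% of all genes were called. Those 11 include CSMD1, whose call rests on 17 reads in 1 WNK2 trans Sor library and is not given as a test. Of the interactions, 2 of the 20 were lower for genotype, C2 at −0.90 (SE 0.27, edgeR adjusted p = 0.0370) and COLEC12 at −0.79 (SE 0.24, edgeR adjusted p = 0.0360), and none higher, where 4.66% and 3.99% of all genes were called. For transfection 2 were higher, ITGB2 with 2.04 (SE 0.63, edgeR adjusted p = 0.0141), and 5 lower, or 3 without C4A and C4B, which passed the filter through the groups compared; the background was 18.1% and 17.4%.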

How the data were processed

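The 24 poly(A) RNA-seq libraries came from T/C-28a2 cells, 4 in each of 6 groups taken from the labels. The authors deposited raw counts of reads for each Ensembl gene, without normalization; the submitters' processing notes name FastQC 0.11.9, HISAT2 2.2.1, HTSeq 2.0.2, DESeq2 1.38.3 and GRCh38, and the annotation release is not given in the sources used here. Total counts of 14153002 to 25664619 per library set the counting precision. Nothing in the labels says that the 4 libraries of a group are separate cultures, so p-values measure the spread between these libraries.

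R 4.3.3 was used with edgeR 4.0.16: filterByExpr (minimum count 10, minimum total 15), TMM factors, a quasi-likelihood fit of the 6 group means, 7 pairwise contrasts and 2 interactions, and Benjamini-Hochberg adjustment over 16600 genes with a threshold of 0.05. CPM are counts per 1000000 of TMM-scaled library size; RPKM divide these by exon kilobases outside other genes' spans. The standard error is the log2 fold change over the root of F. The fit was tested on simulated data. C7 ratios use pooled reads with exact counting intervals of 95%. Likeness used a prior count of 2, and the wider complement genes named are, per comparison, up to 3 called genes with the largest log2 fold change in size. For WNK2- Ctr against the libraries labelled WT Ctr, all genes called higher are also named. The members and lists were chosen with earlier results of these data known. Alternatives were RLE and upper-quartile factors, no filter, 10 counts in every library, the replicate number as a block, the compared groups alone, DESeq2 1.42.0, the other isotonic group (for the transfection interaction added after seeing the data), and each library left out.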

Additional observations from a re-analysis of the deposited data

Results flagged for a closer look

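In 2 of 42 groups of 4 libraries, a member's extreme library stood apart from the other 3 by more than Dixon's 95% limit, where chance alone flags about 5%. C1R had 420.1 CPM in the replicate 3 library labelled WNK2 trans Ctr, against 309 to 322 CPM in the others. CD46 had 140.1 CPM in WNK2- Ctr replicate 1, against 174 to 178 CPM in the others.

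The response to sorbitol differed between groups for 6 interaction terms of members, by edgeR's test of the difference itself. Of all genes, 3.99% were called higher and 4.66% lower for genotype, and 18.1% and 17.4% for transfection. For genotype, the log2 difference was 1.72 for C3 (edgeR adjusted p = 2.61e-09) and −0.98 for C1R (edgeR adjusted p = 0.00112). For transfection it was 2.00 for C3 (edgeR adjusted p = 6.87e-12), 1.54 for CD55 (edgeR adjusted p = 1.06e-08), −1.69 for C1R (edgeR adjusted p = 7.67e-08) and −2.01 for C1S (edgeR adjusted p = 2.92e-10). Each rests on isotonic libraries whose WNK2 counts went against their labels. With the isotonic groups exchanged, the genotype values were 0.06 (edgeR adjusted p = 0.926) for C3 and −0.42 (edgeR adjusted p = 0.281) for C1R, and the transfection values −1.33 (edgeR adjusted p = 2.55e-07) for C3, 0.16 (edgeR adjusted p = 0.611) for CD55, −0.56 (edgeR adjusted p = 0.0665) for C1R and −0.34 (edgeR adjusted p = 0.217) for C1S.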

How the results depend on the processing

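The 54 results for the 6 tested members had 1694 checks under an alternative. Of these, 1677 kept the side of the threshold and, where either value was called, the direction. The checks include the removal of libraries outside the compared groups, which could change little, so this count is no measure of stability. Most of the changes came with the other isotonic group as comparator. A change of sign between values not called was counted as kept, as for C1S in genotype by sorbitol (−0.40 as labelled, 0.44 exchanged). The count of members called stayed within 1.5 times its main value except for the interactions. Genotype by sorbitol went from 2 to 1 with the libraries labelled WNK2 trans Ctr in place of those labelled WT Ctr. Calls over all 16600 genes fell as well, from 1436 to 562. Transfection by sorbitol went from 4 to 1 with both isotonic groups exchanged (chosen after seeing the data). With this exchange the calls over all genes fell from 5897 to 906. The same exchange reversed WT Sor for C7 (−0.61), C3 (0.47), C1R (−0.40) and C1S (−0.33) and the genotype interaction of C7 (0.67), and with the libraries labelled WT Ctr as comparator WNK2 trans Sor reversed for C3 (−0.86), as did the transfection interaction of C3 (−1.33); the cause was not tested. With each library left out in turn, 2 to 3 members were called for WT Sor against WT Ctr and for genotype by sorbitol, and the main count in the other 7 comparisons; C7 in WNK2- Sor against WNK2- Ctr, on 10 and 11 reads in all, ran from −0.19 to 0.43 and was negative without WNK2- Ctr replicate 2 or WNK2- Sor replicate 2, 3 or 4. C1S was called for genotype by sorbitol without WT Ctr replicate 2 (edgeR adjusted p = 0.0414), and CD59 in WT Sor was not called when the compared groups were fitted alone (edgeR adjusted p = 0.0627). The depth limits CFB, SERPING1, CD59 and C7 in WNK2- cells.

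Same-numbered libraries did not in general deviate together (60 pairs, correlation −0.29 to 0.46, median 0.01, 10 pairs over 0.1). Of 24 libraries, 9 correlated best with their own number. The main fit therefore did not pair the samples, though these values cannot settle whether some groups shared a pairing. With the replicate number as a block, the counts of members called were 3, 6, 6, 2, 4, 5, 5, 2 and 4 in the order of the 7 pairwise comparisons and 2 interactions, and no call changed.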
